A study of Mus musculus with 653 samples.

Results

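The glypican family was followed through single cells of the mouse embryonic liver. Its 6 members, Gpc1 to Gpc6, were looked up by symbol in the raw count table, where they are 6 of 54195 genes, and all 6 were found. The cells, 414 at E10.5 and 239 at E13.5, came from livers of embryos from male Lgr5-EGFP-IRES-creERT2 mice, in which the Lgr5 locus drives GFP, crossed to MF1 females. At each stage there was a bulk sort (Liv2+/CD31-/CD45-, a gate for the hepatoblast antigen Liv2 that leaves out endothelial cells by CD31 and leukocytes by CD45) and an Lgr5-GFP+ sort (the same gate and GFP+). The latter gave 50.97% of the cells at E10.5 and 80 cells at E13.5. Each cell was amplified with Smart-seq2, which reads whole transcripts and adds no molecular identifiers, so the counts are reads and not molecules. The study's methods name several sorting experiments as biological replicates, but the labels used here tie no cell to an animal, a litter or a sorting experiment. Each group was therefore treated as 1 sample, no difference was tested between embryos, and no p-value is given.

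Glypicans are heparan sulfate proteoglycans that are held on the outer face of the cell membrane by a glycosylphosphatidylinositol (GPI) anchor. Their heparan sulfate chains and core proteins bind Wnt, hedgehog, fibroblast growth factor and bone morphogenetic protein ligands and change how these reach their receptors. Gpc3 is known for its high level in fetal liver and in hepatocellular carcinoma, and loss of its human counterpart causes an overgrowth syndrome. Gpc4 and Gpc6 are close relatives, and Gpc3 and Gpc5 form the other branch of the family. Gpc1 is widely expressed, and Gpc2 is best known from the developing nervous system.

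The members lie at 4 places in the genome (GRCm38, GENCODE annotation). Gpc3 (ENSMUSG00000055653) spans chrX:52272426-52613950 on the minus strand, and Gpc4 (ENSMUSG00000031119) spans chrX:52053021-52165252 on the same strand, 107173 bases away. Gpc5 (ENSMUSG00000022112) at chr14:115092215-116525179 and Gpc6 (ENSMUSG00000058571) at chr14:116925315-117976544 lie on the plus strand with 400135 bases between them. In both pairs, 0 protein-coding genes lie between the neighbours. Gpc1 (ENSMUSG00000034220) is at chr1:92831645-92860779 on the plus strand, and Gpc2 (ENSMUSG00000029510) is at chr5:138273655-138280005 on the minus strand. Of the exon bases of Gpc2, 55.6% are shared with another gene model on the same strand, so reads from there could not be assigned to Gpc2 alone. Of the exon bases of Gpc1, 18.9% lie opposite exons of Ankmy1, and Smart-seq2 does not keep the strand.

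Of the neighbours Gpc3 and Gpc4, Gpc3 was lowest and Gpc4 highest in total in the Klf1 class described below. The 250 bases before their start sites in RefSeq (GRCm38.p6) are therefore shown, read on the strand of the gene. The Gpc4 window lies inside the GENCODE span of Gpc4 given above, so by that annotation it comes after the start site. Capitals mark matches on either strand to 4 motifs, the TATA box with the letters TATAAA, the CAAT box with CCAAT, the GC box with GGGCGG, and AGATAA as a form of the site of GATA factors. The motifs do not overlap here.
Gpc3, chrX:52613975-52614224, minus strand: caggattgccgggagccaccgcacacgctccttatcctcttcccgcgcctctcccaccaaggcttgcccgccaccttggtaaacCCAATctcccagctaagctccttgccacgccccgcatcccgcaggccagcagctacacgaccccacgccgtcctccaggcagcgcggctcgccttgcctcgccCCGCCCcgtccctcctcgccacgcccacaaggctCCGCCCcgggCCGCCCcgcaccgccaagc
Gpc4, chrX:52164924-52165173, minus strand: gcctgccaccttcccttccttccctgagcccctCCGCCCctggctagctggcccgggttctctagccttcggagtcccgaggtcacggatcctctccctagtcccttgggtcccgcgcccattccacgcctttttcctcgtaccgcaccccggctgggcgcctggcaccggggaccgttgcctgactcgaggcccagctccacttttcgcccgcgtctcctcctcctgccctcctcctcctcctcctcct
The Gpc3 window holds 3 matches to the GC box and 1 to the CAAT box, and the Gpc4 window holds 1 match to the GC box. Neither holds the TATA box or the GATA site. Among 32851 RefSeq promoters, windows of this length hold the GC box in 32.7%, the CAAT box in 33.9%, the TATA box in 12.4% and the GATA site in 9.99%. Both windows are rich in CG pairs, with 25 in Gpc3 and 18 in Gpc4 against a median of 6 over these promoters.

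Levels are given in RPM, the reads of a gene for each 1000000 reads on genes, and lineages were set by reads of 3 marker genes. Afp is the fetal counterpart of albumin and marks hepatoblasts, Klf1 is an erythroid transcription factor, and Pdgfra is a growth factor receptor of mesenchymal cells. A cell with more than 10 reads of exactly 1 of them was placed in that class. There were 61 Afp cells, 160 Klf1 cells, 150 Pdgfra cells, 272 cells with none of the markers and 10 cells with several. The classes were not spread evenly over the sorts. Of the Afp cells, 53 were E10.5 Lgr5-GFP+ cells, and of the Klf1 cells, 78.1% were E13.5 bulk cells, so lineage, stage and sort can only partly be told apart. The label calls all cells hepatoblasts, but Afp cells were fewer than Klf1 or Pdgfra cells, and 0 of the E13.5 bulk cells were Afp cells. The fixed hepatoblast list (12 genes, all with reads) summed to 20143 RPM in Afp cells and 9.97 RPM in Klf1 cells. The erythroid list summed to 8450 RPM in Klf1 cells, and the mesenchyme list to 5173 RPM in Pdgfra cells, with Tcf21 listed at 0.

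Depth lay between 463347 and 2279700 reads on genes in a cell, with a median of 1192740. The cells came in 5 library pools on 3 flow cells, numbered 1 to 5 here. Pools were treated as batches and not as replicates, since the labels do not say which sorting experiments they hold. One pool stood apart. The 23 Pdgfra cells of pool 2 had 9.97 RPM of the mesothelial list and 0.301 RPM of the muscle progenitor list, against 118.7 to 285 RPM and 1.46 to 97.98 RPM in the other pools, while their mesenchyme list (8037 RPM) was the highest. Values are therefore given by pool, and counts that change without pool 2 are given both ways.

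Gpc3 was abundant in Afp cells and in Pdgfra cells and nearly missing from Klf1 cells. Its level, from the reads summed over all cells of a class, was 1011 RPM in Afp cells (exact Poisson 95% interval 1004 to 1018) and 1376 RPM in Pdgfra cells (1371 to 1381). In Klf1 cells it was 5.14 RPM (4.81 to 5.48). These intervals, like the others, cover counting error only. In the 4 pools with at least 5 Afp cells, Gpc3 was at 1048, 905, 1122 and 1256 RPM in pools 2 to 5. In Klf1 cells it was at 5.03, 1.47, 3.20, 8.25 and 5.94 RPM in pools 1 to 5, and in Pdgfra cells at 955, 575, 1566, 1924 and 1435 RPM. No Klf1 value came near the values of the other classes. The Afp and Pdgfra values overlapped.

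The level of Gpc3 was spread over most cells of both classes. The median Afp cell had 839 RPM of Gpc3 (quartiles 334 and 1294), the median Pdgfra cell 1245 RPM (585 and 1891) and the median Klf1 cell 1.31 RPM (0.429 and 2.80). More than 10 reads of Gpc3 were found in 57 of 61 Afp cells (93.4%, exact Clopper-Pearson 95% interval 84.1 to 98.2) and in 95.3% of the 150 Pdgfra cells (90.6 to 98.1). They were found in 10 of 160 Klf1 cells (6.25%, 3.04 to 11.2). Thinning each cell to 100000 reads lowered these shares to 83.6%, 86.7% and 0.625%.

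Gpc6 was also a glypican of the Afp and Pdgfra classes, but it leaned to the Pdgfra cells. It reached 1796 RPM in Pdgfra cells (1790 to 1802), 359 RPM in Afp cells (355 to 363) and 1.91 RPM in Klf1 cells (1.71 to 2.12). By pool, Pdgfra cells had 1736, 2110, 1624, 2087 and 1397 RPM in pools 1 to 5, and Afp cells had 266, 554, 323 and 552 RPM in pools 2 to 5. The lowest Pdgfra pool lay above the highest Afp pool. Klf1 cells stayed between 1.19 and 2.97 RPM in all 5 pools.

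Gpc6 divided the Afp cells, unevenly over the pools. It had more than 10 reads in 43 of 61 Afp cells (70.5%, 57.4 to 81.5), in 93.3% of Pdgfra cells (88.1 to 96.8) and in 0 of 160 Klf1 cells, where a limit of 3 cells allows a share of up to 1.88%. Of the 18 Afp cells below that limit, 17 (94.4%) still had more than 10 reads of Gpc3. In the other direction, 40 of 43 Gpc6-positive Afp cells were positive for Gpc3. By pool, Gpc6 was positive in 19 of 33 Afp cells of pool 2 and 8 of 11 of pool 3. It was positive in 5 of 5 of pool 4 and 9 of 9 of pool 5. The part of the pools in the division was not tested.

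**Figure D1:**
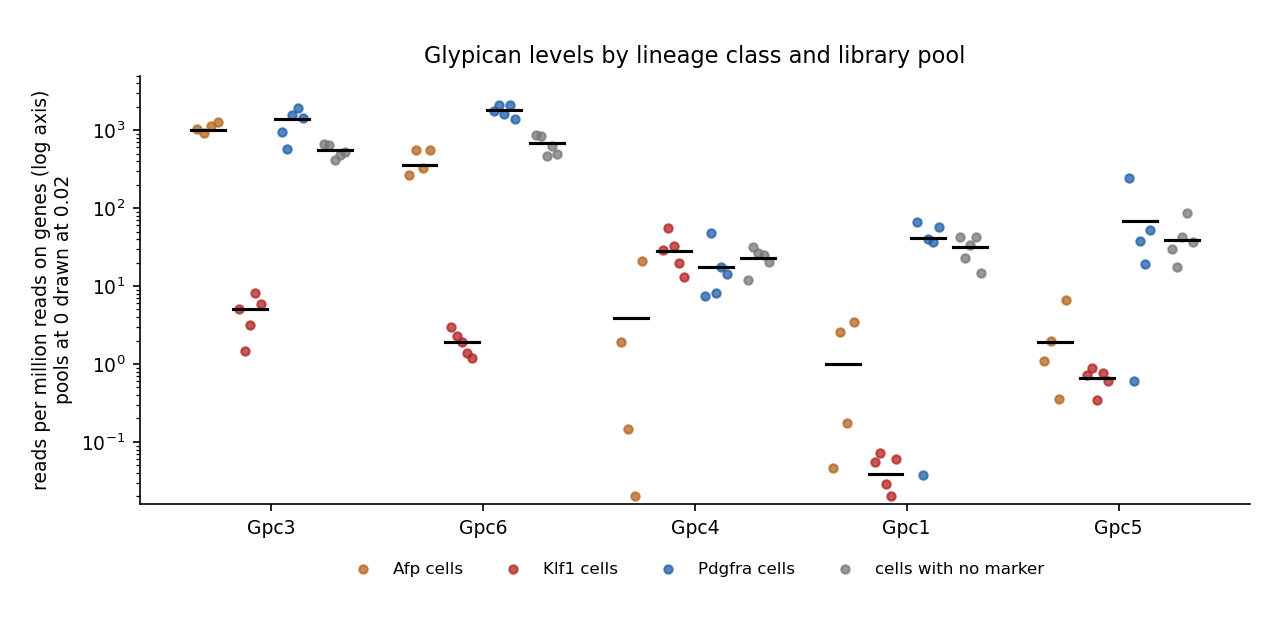
Level of 5 glypicans (RPM, log axis) in the Afp, Klf1 and Pdgfra classes and in cells with no marker; each point is a library pool with at least 5 cells of the class, and the bar is the level over all cells. Gpc3 and Gpc6 separate Klf1 cells from the rest in every pool, and the pool 2 points of Gpc1 and Gpc5 in Pdgfra cells (0.0376 and 0.602 RPM) lie far below the others.

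Most Klf1 cells still held a few reads of both genes. At least 1 read of Gpc3 was found in 75% of Klf1 cells and at least 1 read of Gpc6 in 75.6%, at a median of 1094182 reads per cell. In the same cells, 19 marker genes of hepatoblasts and mesenchyme, which erythroid cells should lack, had at least 1 read in 1.88% to 58.8% of cells and more than 10 reads in 0% to 8.12%. The Gpc3 share is inside that range at more than 10 reads and above it at 1 read, as is the Gpc6 share at 1 read. Gpc6 reached 7.87 RPM in its highest Klf1 cell, and the 5 highest Klf1 cells held 9.91% of its reads there, so the reads were thinly spread over the class. What these reads come from was not tested.

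Gpc4 had a different order. It was at 28.5 RPM in Klf1 cells (27.7 to 29.3), 17.4 RPM in Pdgfra cells (16.76 to 17.97) and 3.91 RPM in Afp cells (3.47 to 4.38). By pool, Klf1 cells had 28.99, 55.16, 32.56, 20.03 and 13 RPM in pools 1 to 5, Pdgfra cells had 7.47, 48.4, 8.03, 17.8 and 14.4 RPM, and Afp cells had 1.90, 0.147, 0 and 20.9 RPM in pools 2 to 5. All 3 classes overlapped by pool. The reads came from a minority of cells, since more than 10 reads were found in 29 of 160 Klf1 cells (18.1%, 12.5 to 24.98), 16 of 150 Pdgfra cells (10.7%, 6.22 to 16.7) and 3 of 61 Afp cells (4.92%, 1.03 to 13.7). The Klf1 share lies above the 0% to 8.12% of the 19 marker genes of other lineages, and it was 8.75% after thinning. The 5 highest cells held 49.4% of the Gpc4 reads of the Klf1 class, 74.3% of those of the Pdgfra class and 98.98% of those of the Afp class.

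Gpc1 and Gpc5 were glypicans of some Pdgfra cells. Gpc1 reached 41.1 RPM in Pdgfra cells (40.2 to 42.1), 1.01 RPM in Afp cells (0.793 to 1.26) and 0.0390 RPM in Klf1 cells, where 7 reads were found. It had more than 10 reads in 49 of 150 Pdgfra cells (32.7%, 25.2 to 40.8), in 2 of 61 Afp cells and in 0 of 160 Klf1 cells. Gpc5 reached 69.1 RPM in Pdgfra cells (67.9 to 70.3), 1.89 RPM in Afp cells (1.596 to 2.231) and 0.663 RPM in Klf1 cells (0.549 to 0.794). It had more than 10 reads in 24 of 150 Pdgfra cells (16%, 10.53 to 22.9), in 2 of 61 Afp cells and in 0 of 160 Klf1 cells. Neither gene was particular to the Pdgfra class. In the 272 cells with no marker, Gpc1 was at 31.3 RPM and Gpc5 at 38.7 RPM, with 41 and 24 cells above 10 reads. The 5 highest cells held 43.7% of the Gpc1 reads and 58.7% of the Gpc5 reads of the Pdgfra class. Of the Pdgfra cells, 7 of 49 Gpc1-positive cells were positive for Gpc5 (14.3%, 5.94 to 27.2) against 17 Gpc1-negative cells (16.8%, 10.1 to 25.6), and these intervals overlap.

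The pools differed most for these genes. In Pdgfra cells of pools 1 to 5, Gpc1 was at 65.4, 0.0376, 40.1, 36.5 and 57.2 RPM, and Gpc5 at 241, 0.602, 37.9, 19.3 and 52.2 RPM. In the 23 Pdgfra cells of pool 2, 0 were positive for either gene, while Gpc6 was at its highest there. Pool 2 held both sorts, with 13 E10.5 bulk and 7 E10.5 Lgr5-GFP+ Pdgfra cells, and Gpc1 was at 0 and 0.117 RPM in them. The part of the mesothelial and muscle progenitor levels of pool 2 in these values was not tested.

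Gpc2 was at the edge of detection. It had 3 reads in 2 cells, both E10.5 Lgr5-GFP+ cells, and no level is drawn from it. The gene model that shares its exons, Gm43720, had 0 reads.

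**Figure D2:**
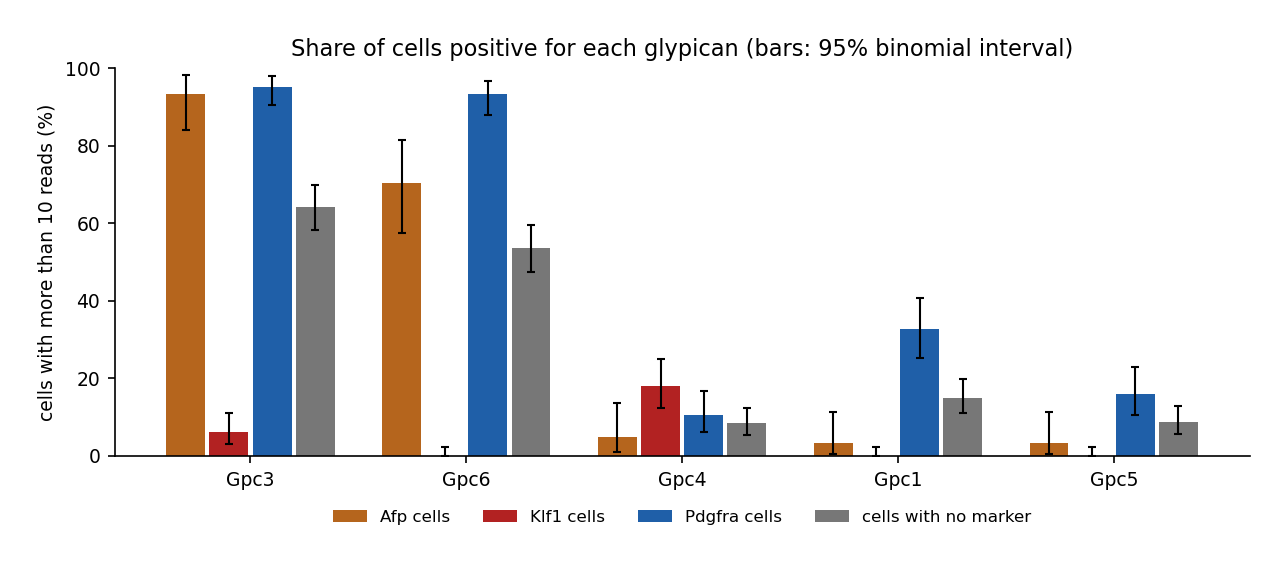
Percent of cells with more than 10 reads of each glypican in the 3 lineage classes and in cells with no marker; error bars are exact 95% binomial intervals over cells, which cover counting error only. Gpc3 and Gpc6 are found in most Afp and Pdgfra cells, and Gpc4 is the glypican found most often in Klf1 cells (18.1%).

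The members were set side by side per length, as RPKM, the RPM divided by the exon length in kilobases. In Afp cells Gpc3 came first with 376 RPKM (336 to 467 over pools), and Gpc6 followed with 55.9 RPKM (41.4 to 86.2). Gpc4, Gpc5 and Gpc1 stood at 1.47, 0.425 and 0.195 RPKM, and their pool ranges overlapped. In Pdgfra cells Gpc3 was at 512 RPKM (213.7 to 715.3) and Gpc6 at 280 RPKM (218 to 329), so these neighbours overlapped by pool. Gpc5, Gpc1 and Gpc4 followed at 15.5, 7.98 and 6.55 RPKM and could not be ordered. In Klf1 cells the order turned, with Gpc4 at 10.7 RPKM (4.91 to 20.8), Gpc3 at 1.91 RPKM (0.545 to 3.07) and Gpc6 at 0.298 RPKM (0.185 to 0.463), and these 3 ranges did not overlap. Gpc3 held 86.6% of the glypican RPKM of Afp cells and 62.3% of that of Pdgfra cells, while Gpc4 held 81.95% of that of Klf1 cells. The whole family summed to 1377 RPM in Afp cells, 3300 RPM in Pdgfra cells and 36.2 RPM in Klf1 cells.

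Single cells showed the balance of the leading members in reads, without division by length. The exons of Gpc6 sum to 6425 bases and those of Gpc3 to 2690 bases, so this measure leans to Gpc6, unlike RPKM. Among cells with more than 10 reads of Gpc3 or Gpc6, the reads of Gpc3 exceeded those of Gpc6 in 49 of 60 Afp cells (81.7%, 69.6 to 90.5) and in 66 Pdgfra cells (44.9%, 36.7 to 53.3). In the pools, the share ran from 81.2% to 100% in Afp cells and from 22.7% to 57.6% in Pdgfra cells, with the lowest Pdgfra share in pool 2. The pool ranges did not overlap. Of the Pdgfra cells positive for Gpc3, 95.1% also had more than 10 reads of Gpc6, and 1 Pdgfra cell had more than 10 reads of 5 members. In the Afp class, 34 of 61 cells had 2 members above that limit and 20 had 1, while 77.5% of Klf1 cells had 0.

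**Figure D3:**
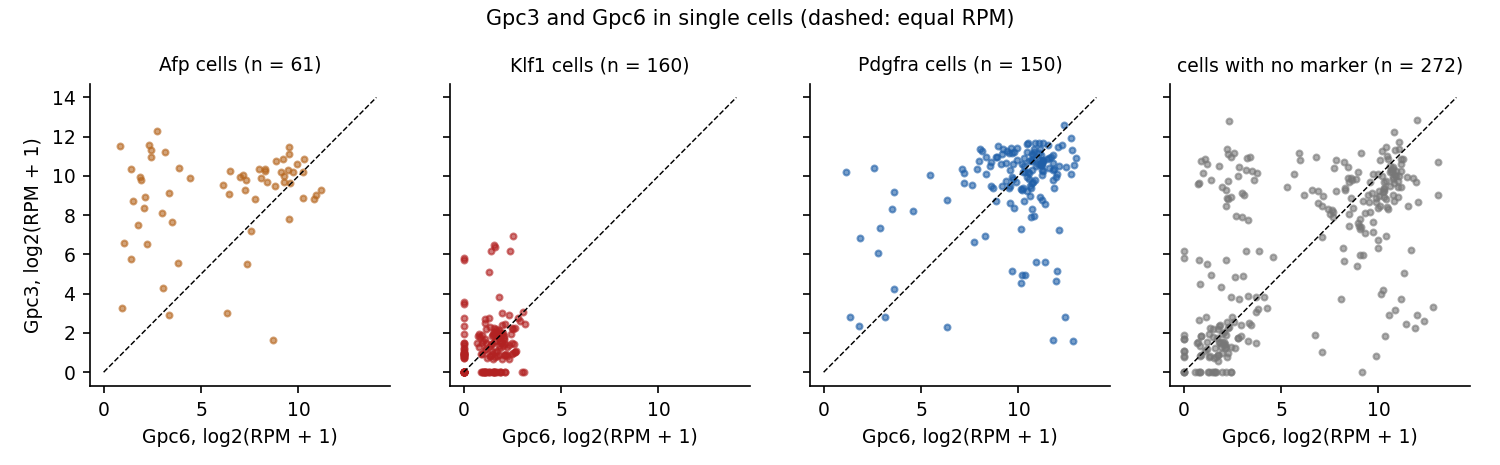
Gpc3 against Gpc6 in every cell of the 3 lineages and of the class with no marker, as log2(RPM + 1), with the dashed line at equal RPM. Pdgfra cells gather where both genes are high, Afp cells spread along Gpc6 at high Gpc3, and Klf1 cells sit near the origin.

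Differences between lineages were then counted with a fixed rule. A gene was called when its RPM differed at least 2-fold and in the same direction in every pool with at least 5 cells of both classes, with at least 2 such pools. Genes with at least 1 RPM over all cells were compared, 14573 in all and 5 of the 6 glypicans, since Gpc2 fell below. The rule finds many genes between such unlike cells, so each count is set beside its share over all genes.

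In Afp over Klf1 cells, 2 glypicans were called higher and 0 lower, where 11.3% of all genes were called higher and 21% either way. Gpc3 was 196.7-fold and Gpc6 187.9-fold higher in Afp cells, in 4 of 4 pools. Gpc4 was 7.29-fold lower in total but higher in 1 of 4 pools, and it was not called. In Pdgfra over Klf1 cells, 2 glypicans were called higher and 0 lower, where 16.8% of all genes were called higher and 25.4% either way. Gpc6 was 940-fold and Gpc3 268-fold higher in Pdgfra cells, in 5 of 5 pools. Gpc1 and Gpc5 were 1055-fold and 104.1-fold higher in total and were called only without pool 2, which brings the count to 4.

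In Afp over Pdgfra cells, Gpc6 alone was called. It was 5.002-fold lower in Afp cells and lower in 4 of 4 pools, where 13.4% of all genes were called lower and 19.9% either way. Gpc3 was 1.36-fold lower in Afp cells and higher in 1 of 4 pools, and it was not called. Without pool 2, Gpc1 and Gpc5 were called lower as well, which brings the count to 3. Of 14573 genes, the median log2 ratio was 0.39 for Pdgfra over Klf1 cells and -0.36 for Afp over Pdgfra cells, so the ratios of the members are to be read from these points and not from 0. After scaling by the median of ratios, Gpc4 was also called, lower in Pdgfra than in Klf1 cells, and the other calls between lineages stayed.

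Among the E10.5 cells alone, which leave 32 Klf1 cells, Gpc3 was called 89.3-fold higher in Afp than in Klf1 cells and 121.2-fold higher in Pdgfra than in Klf1 cells. Gpc6 was called 170-fold and 825-fold higher. The counts were 3 members higher in Afp over Klf1 cells (12.9% of all genes called higher and 22.3% either way), 4 higher in Pdgfra over Klf1 cells (29.9% and 39.9%) and 1 lower in Afp over Pdgfra cells (13.3% of all genes called lower and 19.9% either way). Gpc1 is among the members called in the first 2 comparisons, but it had 1 read in the E10.5 Klf1 cells. These 2 comparisons rest on 3 pools, since pools 1 and 2 had only 2 and 4 E10.5 Klf1 cells. Pool 2, without which Gpc1 and Gpc5 were called in Pdgfra over Klf1 cells above, did not enter, so the higher counts are not from the same pools. The Afp level of Gpc3 was 1089 RPM in the E10.5 Lgr5-GFP+ sort alone, which gave 53 of the 61 Afp cells.

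The stages of the bulk sort were compared next. Gpc3 fell from 948 RPM at E10.5 (699 to 1084 over pools) to 7.23 RPM at E13.5 (2.77 to 18.5). Gpc6 fell from 1034 RPM (668 to 1330) to 33.3 RPM (0.797 to 76.4), and Gpc5 from 50.9 RPM (22.97 to 77.5) to 0.705 RPM (0.575 to 0.839). These 3 members were called lower at E13.5, in 5 of 5 pools, where 14.7% of all genes were called lower and 20.5% either way. The median log2 ratio of all genes was -0.34. Gpc1 went from 26.6 to 2.12 RPM and was not called, and a single cell held 98.4% of its E13.5 reads. Gpc4 was at 15.6 RPM (3.23 to 34.7) and 34.3 RPM (20.8 to 67.5), higher at E13.5 in 4 of 5 pools, and it was not called. A single cell held 40.2% of its E13.5 reads, and 5 cells held 69.3%.

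The mix of lineages changed with stage. Klf1 cells were 15.8% of E10.5 bulk cells and 78.6% of E13.5 bulk cells, and Pdgfra cells were 37.4% and 0.629%. The fall of Gpc3 and Gpc6 over all bulk cells therefore cannot be told apart from the change in cell mix. Within Klf1 cells of the bulk sort (32 of them at E10.5), Gpc3 went from 11.6 to 3.37 RPM, lower in 3 of 3 pools, and it was the only member called (4.41% of all genes were called lower and 12.5% either way). The 5 highest cells held 80.9% of its E10.5 reads and 60.6% of its E13.5 reads there. More than 10 reads of Gpc3 were found in 5 of the 32 E10.5 cells (15.6%, 5.28 to 32.8) and in 4% of the E13.5 cells (1.31 to 9.09). The 19 marker genes of other lineages had 0% to 8.12% over all Klf1 cells, and both intervals overlap that range. Their shares were not taken for the E10.5 cells alone. Gpc6 was at 2.17 and 1.77 RPM and was not called. Gpc4 was at 39.1 and 24.6 RPM in total but higher at E13.5 in the 3 pools with enough cells, and 1001 of its 1531 E10.5 reads came from 4 cells of pool 2. At E13.5, Gpc4 was even across pools, with 24.6, 24.4, 30.6, 23.8 and 19.03 RPM in the Klf1 cells of pools 1 to 5. Afp and Pdgfra cells of the bulk sort were too few at E13.5 to be compared, with 0 and 1 cells. Among cells with no marker (84 and 32), Gpc3, Gpc5 and Gpc6 were called lower in the 2 pools with enough cells (20.5% of all genes were called lower and 28.2% either way), and Gpc3 went from 892 to 21.3 RPM. In the same cells the mesenchyme list went from 1733 to 84.2 RPM and the erythroid list from 1095 to 7380 RPM, and their part in these calls was not tested.

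**Figure D4:**
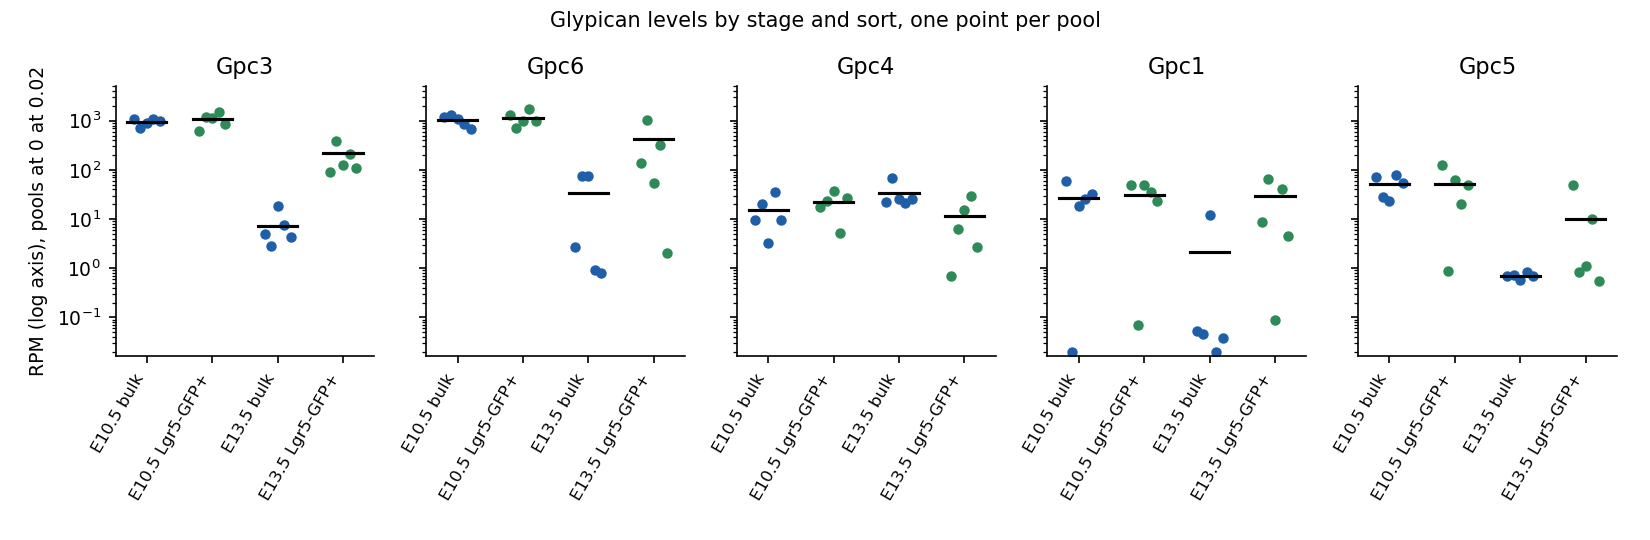
Level of 5 glypicans (RPM, log axis) in the 4 sorted groups; each point is a library pool and the bar is the level over all cells of the group. Gpc3 lies below 20 RPM in all 5 pools of E13.5 bulk cells and between 91.6 and 387 RPM in E13.5 Lgr5-GFP+ cells.

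The Lgr5-GFP+ sort selects cells with activity at the locus of Lgr5, a receptor for R-spondins. At E10.5 no glypican was called between the sorts. Gpc3 was at 948 RPM in bulk and 1064 RPM in Lgr5-GFP+ cells (610 to 1508 over pools), and Gpc6 at 1034 and 1123 RPM (702.9 to 1718). The pool ranges of the sorts overlapped for both genes. The count was 0 members over all cells, where 5.08% of all genes were called either way. It was also 0 within Pdgfra cells (76 and 66 cells, 3.18% of all genes), with Gpc3 at 1367 and 1451 RPM and Gpc6 at 1579 and 2012 RPM. In cells with no marker (84 and 89), Gpc1 was called higher in the Lgr5-GFP+ sort, at 49.7 against 17.95 RPM and in 5 of 5 pools (2.07% of all genes were called higher and 3.55% either way). In pool 2 the direction rests on 1 read against 0, and 5 cells held 67.7% of the Lgr5-GFP+ and 87.8% of the bulk reads. The muscle progenitor list summed to 332 RPM in these Lgr5-GFP+ cells and 19.8 RPM in the bulk cells with no marker, and its part in the result was not tested.

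At E10.5, the share of cells with Gpc3 or Gpc6 was also set side by side. More than 10 reads of Gpc3 were found in 94.3% of Lgr5-GFP+ cells and 75.9% of bulk cells, and of Gpc6 in 82.9% and 67.98%. The Gpc3 share was higher in Lgr5-GFP+ cells in all 5 pools, while the Gpc6 share was nearly equal in pool 1 (71.1% against 71.4%) and pool 2 (63.8% against 63.4%) and higher in pools 3 to 5 (90% to 100% against 59.5% to 78.4%). Klf1 cells were 0 of the Lgr5-GFP+ cells and 32 of the bulk cells, and their part in these shares was not tested.

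At E13.5 the sorts differed more. Gpc3 was at 217 RPM in Lgr5-GFP+ cells (91.6, 387, 126.3, 210.9 and 110.05 in pools 1 to 5) and at 7.23 RPM in bulk cells (4.88, 2.77, 18.5, 7.63 and 4.21). The sorts did not overlap, and Gpc3 was the only member called over all cells, 30.02-fold higher in 5 of 5 pools (7.47% of all genes were called higher and 16.3% either way, with a median log2 ratio of 0.23). Gpc6 was at 418 and 33.3 RPM, but pool 3 went the other way with 54 RPM in Lgr5-GFP+ and 74.9 RPM in bulk cells, and it was not called. Only 1 of the 33 bulk cells of pool 3 had more than 10 reads of Gpc6. Over all pools, 5 cells held 95.03% of its bulk reads and 66.7% of its Lgr5-GFP+ reads. Thinned to equal depth, Gpc6 was called too. Gpc1 was at 30.1 and 2.12 RPM and Gpc5 at 10.1 and 0.705 RPM, and both rested on few cells, since 5 cells held 93.3% and 93.8% of their Lgr5-GFP+ reads.

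These sorts held different cells. Of the 80 E13.5 Lgr5-GFP+ cells, 83.8% had no marker and 3.75% were Klf1 cells, against 20.1% and 78.6% of bulk cells. In the Lgr5-GFP+ cells with no marker, the mesenchyme list summed to 3590 RPM, the megakaryocyte list to 2503 RPM, the leukocyte list to 1274 RPM and the endothelial list to 1117 RPM. In the bulk cells with no marker, the same lists summed to 84.2, 69.8, 848 and 101.8 RPM, and the erythroid list to 7380 RPM. Within cells with no marker (67 and 32), Gpc3 was at 176.1 and 21.3 RPM and higher in 1 of 2 pools, and 0 members were called (27.8% of all genes either way). The difference over all cells therefore cannot be told apart from the different mix of cells.

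Within the Afp class, Gpc3 was set against the reads of Lgr5 itself. The 23 Afp cells with more than 10 Lgr5 reads had 1231 RPM of Gpc3, and the 23 with 0 Lgr5 reads had 770 RPM. In the 2 pools with enough cells, the first ran from 1001 to 1275 RPM and the second from 608 to 977 RPM, so they did not overlap. Gpc6 was at 310 and 470 RPM, and its pool ranges (186.2 to 489 and 374 to 928 RPM) overlapped. In Pdgfra cells, 19 cells with more than 10 Lgr5 reads had 1534 RPM of Gpc3 and the cells with 0 Lgr5 reads had 1288 RPM (602 to 1877 over pools). Cells with more than 10 reads of Mki67, a marker of dividing cells, had 1179 RPM of Gpc3 in the Afp class (35 cells) and 1446 RPM in the Pdgfra class (88 cells), against 787 RPM (26 cells) and 1273 RPM (62 cells) in the rest. The pool ranges of the Pdgfra cells overlapped (638 to 1970 and 548 to 1847 RPM), and the Afp cells without Mki67 had 1 pool with enough cells, at 839 RPM against 911 to 1409 RPM in 3 pools with Mki67. Gpc1 was found in 45.5% of the Pdgfra cells with Mki67 and 14.5% of those without. Its share in all Pdgfra cells also differed by pool, from 0% in pool 2 to 51.5% in pool 3. The part of the pools in the Mki67 difference was not tested.

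The 272 cells with no marker were mixed. Gpc3 was at 562 RPM and Gpc6 at 686 RPM, with more than 10 reads in 64.3% and 53.7% of cells. The groups that follow were set by 5 further genes, and a cell could have several of them, so these groups overlap. The 14 cells with more than 10 reads of Ptprc, which encodes the leukocyte antigen CD45, had 10.02 RPM of Gpc3 and 1.52 RPM of Gpc6. The 37 cells with Kdr, an endothelial receptor, had 26.3 and 44.1 RPM. The 30 cells with Itga2b, a megakaryocyte integrin, had 256 and 231 RPM, but 5 of them held 94.96% of the Gpc3 reads and 87.2% of the Gpc6 reads. The 30 cells with Pax3, a muscle progenitor factor, had 329 and 473 RPM, and Gpc3 was above 10 reads in 28 of them. The 24 cells with Wt1, a mesothelial factor, had 872 and 707.5 RPM, and the cells with none of the 5 genes had 707.4 and 922 RPM. The levels were lowest in the cells with Ptprc and Kdr, but this order does not hold for the median cell, which had 2.099, 1.78 and 1.92 RPM of Gpc3 among the cells with Ptprc, Kdr and Itga2b. Within the Pdgfra class, the 37 cells with Wt1 had 10.7 RPM of Gpc1 (1.72 to 15.5 over 4 pools) against 51.1 RPM in the others (0.0419 to 81.1 over 5 pools), and these ranges overlap.

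The genes that build, modify and release heparan sulfate were counted with the same rule, over the genes of each list that reached 1 RPM over all cells. In Pdgfra over Klf1 cells, 8 of 14 genes of chain sulfation and epimerisation were called higher, with a median log2 ratio of 2.87, beside 16.8% of all genes. The 3 with the largest ratios were Hs6st2 (146.03 against 0.217 RPM), which adds sulfate at the 6-O position, and Hs3st3b1 (58.1 against 0.195 RPM) and Hs3st1 (2.71 against 0.0167 RPM), which add it at the 3-O position. In Afp over Klf1 cells, 5 of the 14 were called higher and 1 lower, beside 11.3% and 9.7% of all genes. Those called higher were led by Hs3st3b1 (127.1 RPM) and Ndst4 (31.4 RPM), an N-deacetylase and N-sulfotransferase. Chain synthesis had 1 of 11 genes called higher in each comparison, beside 16.8% of all genes (Pdgfra cells) and 11.3% (Afp cells). The gene in Pdgfra cells was Pxylp1, a xylose phosphatase of the linker (16.9 RPM against 0.167 RPM in Klf1 cells). The gene in Afp cells was Xylt2, which starts the chain (31.9 against 6.05 RPM). The GPI transamidase, which attaches the anchor of the glypicans, had 0 of 5 genes called higher in either comparison and 1 called lower in each. These were Pigs in Afp cells (14.9 against 34.7 RPM in Klf1 cells) and Pigk in Pdgfra cells (50.5 against 102.4 RPM), beside 9.7% and 8.69% of all genes called lower.

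Genes for the editing, cleavage and release of heparan sulfate and glypicans were counted next. Of 8 genes for editing, cleavage and release, 5 were called higher in Pdgfra over Klf1 cells, beside 16.8% of all genes. Sulf1 was at 58.4 against 0.167 RPM and Sulf2 at 160 against 1.26 RPM; both encode sulfatases that remove 6-O sulfate. Hpse2, a relative of heparanase, was at 54.1 against 1.40 RPM. In Afp over Klf1 cells, 2 of the 8 were called higher, beside 11.3% of all genes. These were Sulf2 (44.7 RPM) and Furin (39.2 against 4.76 RPM), a protease that cuts glypican core proteins. In Afp over Pdgfra cells, 3 of the 8 were called lower, beside 13.4% of all genes, and these were Hpse2, Pcsk5 and Sulf1 (1.03, 1.95 and 3.92 RPM in Afp cells).

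Other heparan sulfate proteoglycans were counted in the same way. Of 8 genes, 5 were called higher in Afp over Klf1 cells and 5 in Pdgfra over Klf1 cells, beside 11.3% and 16.8% of all genes. Sdc2, a syndecan, was at 95.7 RPM in Pdgfra cells, 20.4 RPM in Afp cells and 0.223 RPM in Klf1 cells. Sdc4, another syndecan, was at 182.7 RPM in Afp cells and 35.8 RPM in Pdgfra cells. It was the only one of the 8 called higher in Afp over Pdgfra cells, beside 6.48% of all genes. Sdc2 and Tgfbr3 were called lower, beside 13.4% of all genes.

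Of 11 hedgehog pathway genes, 6 were called higher in Pdgfra over Klf1 cells and 0 in Afp over Klf1 cells, beside 16.8% and 11.3% of all genes. Among them were Gli1 (12.6 against 0.0167 RPM) and Gli2 (136.6 against 0.212 RPM), which encode transcription factors of the pathway. In Afp over Pdgfra cells, 4 of the 11 were called lower, beside 13.4% of all genes. Gli2 was at 0.265 RPM in Afp cells, and the co-receptor Gas1 at 1.96 against 130.5 RPM. The median log2 ratio of the list was -3.59, beside -2.32 for the glypicans and -0.36 for all genes.

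**Figure D5:**
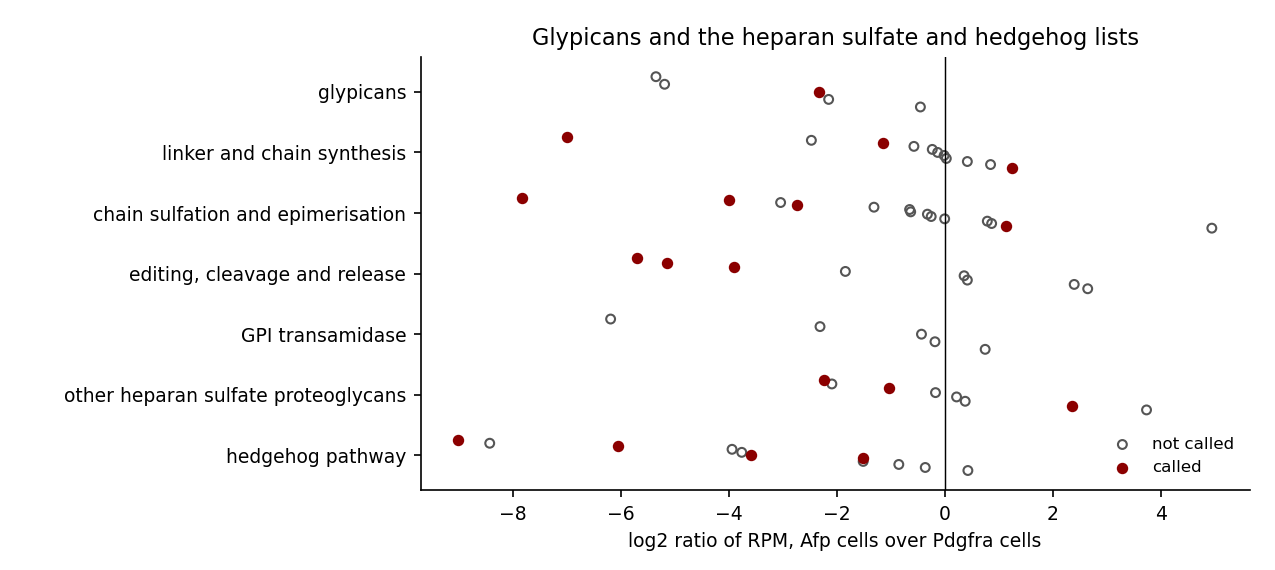
Log2 ratio of RPM in Afp over Pdgfra cells for the tested glypicans and for the genes of the 6 fixed lists; filled points were called (at least 2-fold and the same direction in every pool). The hedgehog list lies furthest to the left, with a median of -3.59, and Gpc6 is the filled point of the glypicans at -2.32.

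The genes with the most similar pattern were found by Pearson correlation of log2(RPM + 1) over the 9 classes of lineage and group with at least 10 cells, among 10799 protein-coding genes with at least 5 RPM over all cells. The classes share libraries and pools, and the correlations are descriptions. For Gpc3 they were Tenm3 (r = 0.992), Tram1l1 (0.983) and Taf13 (0.979). For Gpc6 they were Alcam (0.987), Eva1b (0.984) and Auts2 (0.983). Gpc5 was followed by Zfp462 (0.998), Trabd2b (0.997) and Crabp1 (0.997), Gpc1 by Dpysl3 (0.991), Spon1 (0.990) and Limch1 (0.986), and Gpc4 by Srsf5 (0.956), Hltf (0.949) and Polm (0.932). Between members, Gpc3 and Gpc6 had the closest pattern to each other among the pairs with Gpc3 (r = 0.923), and Gpc3 and its neighbour Gpc4 had r = -0.581. In the class where Gpc4 was highest, E13.5 bulk cells with no marker (65.1 RPM), a single cell held 99.5% of its reads. The correlations of Gpc4 were not taken without that cell.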

How the data were processed

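The data are Smart-seq2 libraries of 653 single cells, each a separate sample: 203 and 211 from the E10.5 bulk and Lgr5-GFP+ sorts, and 159 and 80 from those at E13.5. According to the methods and the labels, STAR 2.6.0c was used by the authors for mapping on GRCm38.p6, and Subread 1.6.2 to count uniquely aligned reads per gene of Ensembl, after filters on mitochondrial and spike-in reads, total reads and detected genes. The deposited counts are raw and not normalised, and 0 columns were left unused. A deposited table of normalised values was not used here. Gene IDs were named with GENCODE, 54042 of 54195.

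Reads were summed per class and divided by all reads on genes (RPM), or also by merged exon length (RPKM), with Python 3.11.15, NumPy 2.4.6 and SciPy 1.17.1. A class needed 10 cells and 5 within a pool. Lineages, calls and the 14573 genes compared are defined in the text. A class with no read was put at 3 counts. With 1 sample per group no significance test was run. The script that makes the calls was checked on simulated counts. Members and lists were chosen with earlier results of these data known. From each list, at most 3 called genes per direction with the largest ratio are named, and for each member the 3 genes most like it. A gene that this rule names in the hedgehog list is not reported here. Digestion was longer at E13.5 than at E10.5. Promoters were given for Gpc2, Gpc3, Gpc4 and Gpc5.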

Additional observations from a re-analysis of the deposited data

Results flagged for a closer look

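Over the library pools, 3 of 20 pairs of member and class had a pool far from the others by Dixon's ratio, which chance alone gives in about 1 of 20 groups. Gpc5 was at 241 RPM in the Pdgfra cells of pool 1, the highest of 5 pools. Gpc4 was at 48.4 RPM in the Pdgfra cells of pool 2, the highest of 5 pools, and 1 of its 23 cells had more than 10 reads. Gpc4 was at 20.9 RPM in the Afp cells of pool 5, the highest of 4 pools, where 2 of 9 cells had more than 10 reads. In 20 pairs of contrasts (sorts at both stages, and stages or sorts in 2 classes), 0 had every pool of one contrast moving one way and every pool of the other moving the opposite way.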

How the results depend on the processing

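Of 85 alternative counts of called glypicans over 6 comparisons, 70 were within 1.5 times the main count, and of 335 alternative log2 ratios, 319 had the same direction. No called ratio changed sign. In Afp over Klf1 cells (2 called), a lineage set by at least 1 marker read gave 1 (Gpc3). Without the rule on pools, the counts were 5 in Afp over Klf1, 4 in Pdgfra over Klf1 (2 with the rule) and 4 in Afp over Pdgfra (1 with the rule). They were 5 between stages (3 with the rule) and 5 between sorts at E13.5 (1 with the rule). The share of all genes was not counted without this rule or with pools left out, so such counts have no background here. Leaving out 1 pool at a time gave 2 to 4 in Pdgfra over Klf1 cells (4 without pool 2, with Gpc1 and Gpc5), and 1 to 3 in Afp over Pdgfra cells (3 without pool 2, 2 without pool 5, with Gpc4). It gave 0 to 1 between sorts at E10.5 (Gpc4 without pool 4), and 1 to 3 between sorts at E13.5 (3 without pool 3, with Gpc1 and Gpc6; 2 without pool 4 or pool 5). Between sorts at E13.5, thinning gave 2, and pools 1 and 2 alone gave 5. The causes were not tested. In Afp over Klf1 and Afp over Pdgfra cells, leaving out pools 3, 4 and 5 together could not be run, because fewer than 2 pools had enough cells. No paired analysis was possible because no result comes from a test and pools, not replicates, are shared between groups. Shares above a read limit follow depth: 37 of 60 alternative shares left the interval of the main share. Without the limit of 1 RPM, 1.68% to 7.39% of all genes were called in the 6 comparisons.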

Other observations

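The 10 cells with more than 10 reads of several lineage markers were 5 with Klf1 and Pdgfra, 4 with Afp and Pdgfra and 1 with Afp and Klf1. They had 1581 RPM of Gpc3 and 959 RPM of Gpc6, and a single cell held 94.9% of their Gpc5 reads (100.5 RPM).

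Opposite Gpc1, Ankmy1 had 1576 reads in 32 cells. Of 365 index pairs, 230 occur in more than 1 pool, and 0 cells had the same counts as another.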
